A study of Bos grunniens and Bos grunniens x Bos taurus with 12 samples.

Results

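Junction genes of the blood–testis barrier were read from Ribo-seq of whole testis. The genes were taken by symbol: CLDN11, CLDN3, OCLN, TJP1, TJP3, F11R, JAM3, GJA1 and CDH2. Of these 9 symbols, 5 named a row among the 20965 genes of the comparison tables, of which 13662 had a symbol. They were TJP1 (ENSBGRG00000012231), TJP3 (ENSBGRG00000019950), JAM3 (ENSBGRG00000024118), GJA1 (ENSBGRG00000009758) and CDH2 (ENSBGRG00000023975). CLDN11, CLDN3, OCLN and F11R were absent as symbols. For 3 of them, a row without a symbol carried the protein's description, namely claudin-11 (ENSBGRG00000006186), claudin-3 (ENSBGRG00000013047) and junctional adhesion molecule A, JAM-A, the product of F11R (ENSBGRG00000000756). These rows are given beside the 5 genes but are not counted with them. No row could be named as occludin: the one description with that word was of another gene, OCEL1.

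Ribo-seq sequences the mRNA fragments that ribosomes protect, so the level of a gene joins the amount of its mRNA and its occupation by ribosomes. There were 4 groups of 3 animals with 1 library each: yak of 6 months (Bos grunniens, labelled as the juvenile stage), yak of 18 months (labelled as puberty), yak of 4 years and cattle–yak of 4 years (both labelled as sexual maturity). Cattle–yak are hybrids, here of a Jersey cattle father and a Gannan yak mother, and their males are known to be sterile. The yak and the cattle–yak carried no treatment or engineered allele. The labels give castration as the source of all testes, while the methods give it for cattle–yak and euthanasia for yak of 4 years, and the reads of the hybrids, which carry a cattle and a yak genome, were aligned to the yak genome alone.

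The blood–testis barrier is made by neighbouring Sertoli cells, the somatic cells that nurse the germ cells, near the base of the seminiferous tubule. It closes around puberty and separates early germ cells from meiotic and later ones. Its tight junctions are built of claudins, occludin and junctional adhesion molecules. They are tied to the actin skeleton by the zonula occludens scaffolds, and they coexist with gap junctions, with cadherin-based adherens junctions and with desmosomes.

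Library totals were 25816963 to 37167651 counts at 6 months, 21309151 to 24542362 at 18 months, 16304058 to 17862516 at 4 years and 38437889 to 52616039 in cattle–yak. The 18-month libraries stood apart from one another: their log2 CPM correlated at r = 0.826 to 0.965 across genes, against 0.977 to 0.99 within the other groups. The summed FPKM of 5 round spermatid genes was 657.5 in the second 18-month library, and 4.6 and 7.03 in the others of that group. The same sum was 1.19 to 2.56 at 6 months, 1125 to 1830 in adult yak and 4.24 to 8.96 in the hybrids. The Sertoli cell list (10 of its 12 symbols were in the tables; AMH and CLU were not) summed to 6264 to 7689 FPKM at 6 months, 2252 to 6439 at 18 months, 806 to 1109 at 4 years and 1634 to 1905 in cattle–yak. INHA, the inhibin alpha subunit, made up 5825 to 7288 FPKM of this sum in juvenile yak. Without INHA the 9 genes summed to 358 to 439 in juvenile yak and 444 to 785 at 18 months. They summed to 297 to 406 in adult yak and 919 to 954 in the hybrids. Of this, DMRT1 made up 47.42 to 81.87 FPKM in juvenile yak and 435 to 456 in the hybrids. The direction of the sum between hybrids and juvenile yak thus depended on INHA. The median log2 fold change of the list between them was −0.046, beside −0.018 over all genes tested. In whole testis, fewer cells of a type and less RNA per cell cannot be told apart.

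A gene was called differentially translated (DTG) when it passed edgeR's quasi-likelihood test at an adjusted p below 0.05 and the groups differed by 2-fold or more. Adjusted p-values are over all genes tested, and they measure only the spread between these animals. FPKM divides counts by gene length and library total, so that levels can be compared between genes. Log2 fold changes are from counts scaled by TMM, which need not match a ratio of FPKM.

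**Figure D1:**
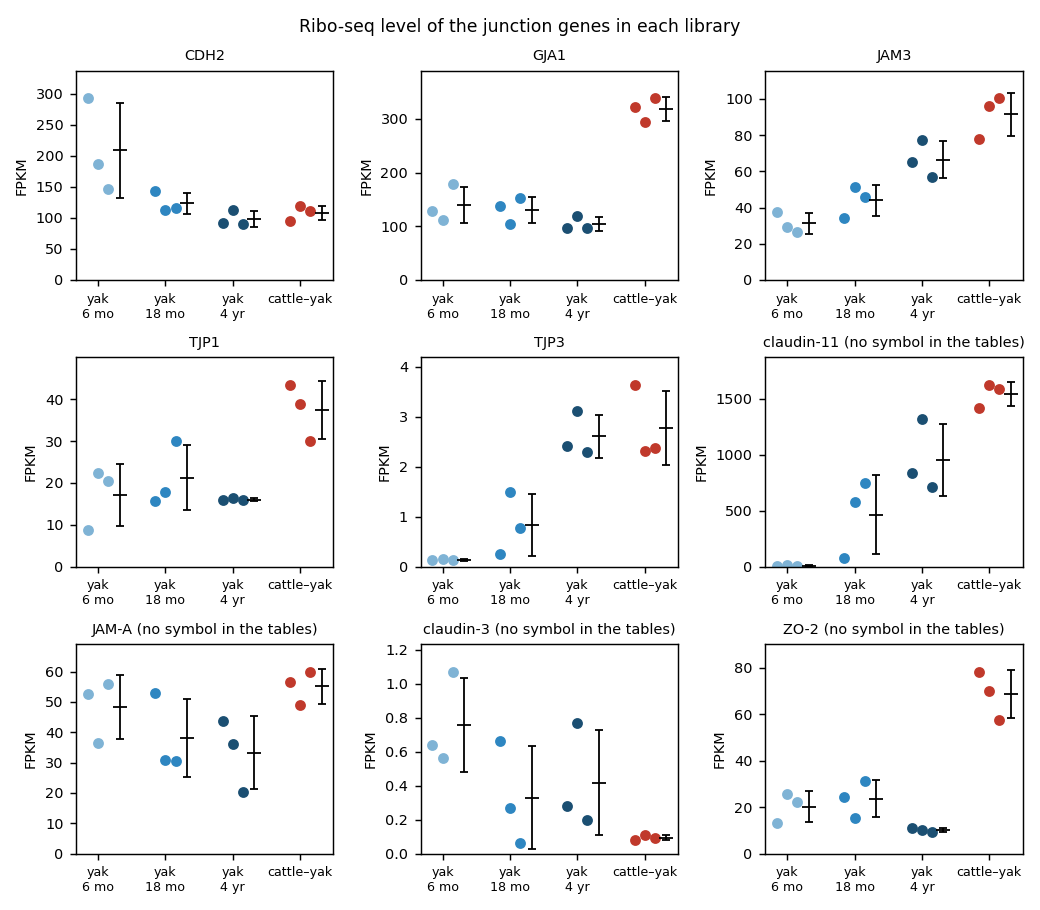
FPKM of each gene in every library (points, 3 per group from replicate 1 at the left to replicate 3), with the group mean and SD (bar and whiskers, n = 3); each panel has its own axis from 0. GJA1, claudin-11 and ZO-2 are highest in the 3 cattle–yak libraries, claudin-11 and TJP3 are near 0 in the 3 libraries of 6 months, and CDH2 is highest at 6 months.

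Claudin-11, the main claudin of Sertoli cell tight junctions, had the largest log2 fold change over age of the genes named above. Its FPKM was 9.21, 18.42 and 4.71 at 6 months, 75.19, 573.73 and 749.57 at 18 months, 832.52, 1316.80 and 712.92 at 4 years, and 1416.55, 1623.31 and 1585.94 in cattle–yak. All libraries of 6 months were below all others, the 18-month libraries overlapped those of 4 years only through their highest value, and all cattle–yak libraries were above all yak. With a mean of 10.78 FPKM, claudin-11 was at percentile 68.4 of all genes at 6 months, and with 1542 FPKM at percentile 99.7 in cattle–yak.

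Claudin-11 was a DTG, higher at 4 years than at 6 months, with a log2 fold change of 5.90 ± 0.51 (SE; adjusted p = 9.988e-06, edgeR). From 6 to 18 months the log2 fold change was 5.02 ± 0.90 with an adjusted p of 0.0588, and without the first 18-month library it was 5.49 with an adjusted p of 0.00965. That library had 75.19 FPKM of claudin-11 and the highest Sertoli cell sum of its group, of which 5964 FPKM was INHA; without INHA the highest sum was in replicate 3. From 18 months to 4 years the difference was within the spread of the libraries (log2 fold change 0.92 ± 0.73, adjusted p = 0.354).

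Cattle–yak had 1.63 times the claudin-11 level of yak of 4 years, a log2 fold change of 0.70 ± 0.22 that passed under 2-fold (adjusted p = 0.0207). In a fit of all 12 libraries the value was 0.72 with an adjusted p of 0.367, without the second cattle–yak library 0.67 with an adjusted p of 0.0525, and without the second library of 4 years 1.06, past 2-fold (adjusted p = 0.000969).

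**Figure D2:**
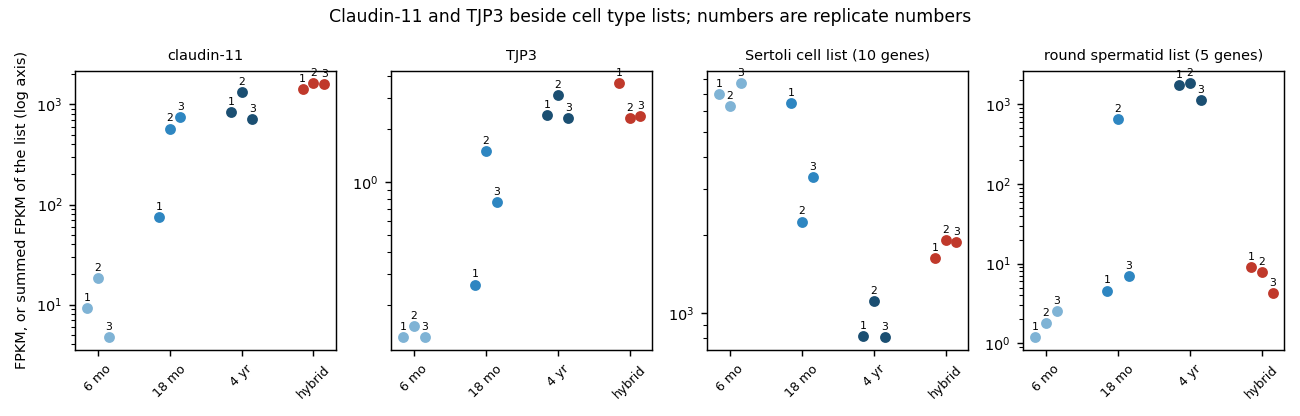
FPKM of claudin-11 and TJP3 and summed FPKM of the Sertoli cell (INHA included) and round spermatid lists in every library (points; log axes; the number beside each point is its replicate). At 18 months only replicate 2 has a round spermatid sum above 10, whereas claudin-11 is above 500 in replicates 2 and 3; in cattle–yak claudin-11 is above and TJP3 overlaps the level of 4 years while the round spermatid sum stays below 10.

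Claudin-3, which in mouse enters newly formed Sertoli cell junctions, was at 0.64, 0.56 and 1.07 FPKM at 6 months, from 15 to 30 counts. It was at 0.66, 0.27 and 0.06 at 18 months, 0.28, 0.77 and 0.20 at 4 years and 0.08, 0.11 and 0.09 in cattle–yak, the last from 3 or 4 counts per library. It passed the filter on low counts only in the comparisons with yak of 6 months, through its counts at that age. It is therefore given without a call: its 3 cattle–yak libraries lay below all libraries of 6 months, and yak of 4 years overlapped them.

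JAM3 encodes junctional adhesion molecule C, which is known from both Sertoli and germ cells. Its FPKM was 37.81, 29.19 and 26.58 at 6 months, 34.50, 51.49 and 45.88 at 18 months, 65.36, 77.37 and 56.74 at 4 years and 78.01, 96.02 and 100.58 in cattle–yak. The groups of 6 months, 4 years and cattle–yak did not overlap in FPKM, and the 18-month libraries overlapped only those of 6 months. JAM3 was a DTG between cattle–yak and 6 months by a narrow margin, the log2 fold change being 1.002 ± 0.214 (adjusted p = 0.00429, edgeR). It fell under 2-fold there when any of 4 libraries was left out (0.86 to 0.97 without replicate 2 or 3 of either group).

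Cattle–yak were above yak of 4 years by 0.46 ± 0.15 on the log2 scale (adjusted p = 0.0245), which passed the test under 2-fold, but the adjusted p was 0.0827 with all 12 libraries in 1 fit and 0.0643 and 0.0763 without replicates 2 and 3 of cattle–yak in turn. Between 4 years and 6 months the value depended on the scaling. It was 0.52 ± 0.22 with TMM (adjusted p = 0.0579) and 1.11 with library size alone (adjusted p = 0.000675), a scaling under which the median of all genes tested lay at 0.641 in place of 0.076. Without the first library of 6 months it was 0.78 (adjusted p = 0.00383).

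JAM-A, the other junctional adhesion molecule, varied less. It was at 52.54, 36.46 and 55.94 FPKM at 6 months, 52.90, 30.86 and 30.67 at 18 months, 43.63, 36.03 and 20.17 at 4 years and 56.46, 48.83 and 59.95 in cattle–yak. The yak groups overlapped one another, and the cattle–yak libraries lay above those of 4 years only. The difference between cattle–yak and 4 years was 0.73 ± 0.26 on the log2 scale (adjusted p = 0.0381), under 2-fold. Its adjusted p was 0.113 with all 12 libraries in 1 fit and 0.0609 to 0.0844 without replicate 2 of 4 years or replicate 1 or 3 of cattle–yak, and without the first library of 4 years it was past 2-fold (1.08). Between 4 years and 6 months it was a DTG, lower at 4 years (−1.11 ± 0.30, adjusted p = 0.00917), but was −0.54 with library size alone (adjusted p = 0.112) and under 2-fold without replicate 1 of 6 months (−0.97) or replicate 3 of 4 years (−0.85).

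The scaffolds behind the tight junction proteins followed different courses. TJP1 encodes ZO-1, which links claudins and occludin to actin. Its FPKM was 8.79, 22.39 and 20.43 at 6 months, 15.64, 17.89 and 30.04 at 18 months, 15.95, 16.37 and 15.84 at 4 years and 43.41, 38.88 and 29.90 in cattle–yak. The yak groups overlapped, and the cattle–yak libraries were above all libraries of 6 months and 4 years and overlapped those of 18 months through 30.04 in replicate 3 of that age.

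TJP1 was a DTG between cattle–yak and yak of 4 years, higher in cattle–yak by 1.24 ± 0.16 on the log2 scale, or 2.35-fold (adjusted p = 0.000238, edgeR). Against 6 months, cattle–yak were higher by 0.62, which did not pass (adjusted p = 0.0971, edgeR). TJP1 was called there with library size alone (1.12) and in limma on FPKM (1.16 and 1.21 with pseudocounts of 1 and 0.1). TJP1 did not pass between any yak ages. The lowest adjusted p among them was 0.0531, at 4 years against 6 months (−0.64 ± 0.26). Without the first library of 6 months it passed under 2-fold (−0.92, adjusted p = 0.000263), and on the FPKM scale that difference was 0.005 with a pseudocount of 1.

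TJP3 encodes ZO-3, a scaffold of the same family that is more typical of epithelia. It was at 0.13, 0.15 and 0.13 FPKM at 6 months, from 9 to 16 counts per library. At 18 months it was at 0.26, 1.49 and 0.77, at 4 years at 2.41, 3.11 and 2.30 and in cattle–yak at 3.64, 2.31 and 2.38. The 3 yak ages did not overlap, and cattle–yak and yak of 4 years did.

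TJP3 rose from 6 months to 4 years by 3.67 ± 0.33 on the log2 scale, or 12.7-fold (adjusted p = 1.307e-05), and was higher in cattle–yak than at 6 months by 3.81 ± 0.33. At 6 months its counts were under the filter, which it passed through its level at 4 years; with no filter the rise was 3.66 (adjusted p = 8.091e-06). Between cattle–yak and 4 years the difference was 0.12 ± 0.26 (adjusted p = 0.694), and −0.14 without the first cattle–yak library. The round spermatid sum was 1125 to 1830 FPKM in yak of 4 years and 4.24 to 8.96 in cattle–yak, at a similar TJP3 level. The 6 of 8 duct epithelium markers in the tables summed to 15.71 to 29.67 FPKM at 6 months, 493 to 597 at 4 years and 236 to 311 in cattle–yak, of which EPCAM made up 483 to 589 at 4 years. Of these markers, 3 were DTGs, higher, and 3 lower at 4 years than at 6 months, beside 31% and 24.7% of all genes tested. None was at 0 in a whole group, and the part of these markers in the TJP3 result was not tested.

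ZO-2 (ENSBGRG00000001216), a further scaffold of that family, was also a row without a symbol and is not among the 9 symbols. It was at 13.09, 25.68 and 22.10 FPKM at 6 months, 24.47, 15.56 and 31.16 at 18 months, 11.15, 10.36 and 9.30 at 4 years and 78.30, 69.97 and 57.54 in cattle–yak. The cattle–yak libraries were above all yak libraries, and those of 4 years were below all others. At 4 years against 6 months it was a DTG, lower (−1.51 ± 0.21, adjusted p = 0.000169), but fell under 2-fold with library size alone (−0.96) and in limma on FPKM (−0.87 and −0.92 with pseudocounts of 1 and 0.1). Between cattle–yak and 4 years it was a DTG at 2.74 ± 0.17 on the log2 scale, or 6.67-fold (adjusted p = 3.707e-06).

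GJA1 encodes connexin 43, the main gap junction protein of Sertoli cells, which also joins Leydig cells and peritubular cells. Its FPKM was 129.26, 112.34 and 178.08 at 6 months, 136.92, 104.23 and 151.87 at 18 months, 97.49, 118.98 and 96.60 at 4 years and 322.72, 294.41 and 339.22 in cattle–yak. All cattle–yak libraries were above all yak libraries, and the yak ages overlapped.

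GJA1 was a DTG, higher in cattle–yak than in yak of 4 years by 1.62 ± 0.13 on the log2 scale, or 3.08-fold (adjusted p = 1.57e-05, edgeR). Against 18 months it was a DTG at 1.13 ± 0.23 (adjusted p = 0.0435), a call that was lost without any 1 of the 6 libraries (0.92 to 1.28). Over all genes, edgeR called 910 there, but 0 without any 1 cattle–yak library and 364 to 2464 without an 18-month library. Against 6 months GJA1 was higher by 0.65 ± 0.19 (adjusted p = 0.0167), under 2-fold. There it was 1.19 with library size alone, and its adjusted p was 0.0527 without the second library of 6 months and 0.0593 without the third cattle–yak library.

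Among yak, GJA1 passed the test at 4 years against 6 months at −0.99 ± 0.19 on the log2 scale (adjusted p = 0.00154), under 2-fold. With library size alone it was −0.42 with an adjusted p of 0.0883, and it was past 2-fold without the second library of 6 months (−1.16) or of 4 years (−1.09). The FPKM of GJA1 was the highest of the 5 genes in cattle–yak, at 318.8 ± 22.7 (mean and SD, n = 3) and percentile 97.1 of all genes.

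CDH2 encodes N-cadherin, which joins Sertoli cells to one another and to germ cells. It was at 292.90, 186.83 and 145.65 FPKM at 6 months, 143.03, 112.50 and 115.05 at 18 months, 91.32, 112.44 and 90.55 at 4 years and 95.52, 118.25 and 110.63 in cattle–yak. The libraries of 6 months were above all others, and those of 18 months and 4 years met at 112.50 and 112.44.

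CDH2 was a DTG, lower at 4 years than at 6 months, with a log2 fold change of −1.69 ± 0.31, or 3.22-fold (adjusted p = 0.000982). It was −1.08 with library size alone and −1.25 without the first library of 6 months, and remained a DTG under both. Cattle–yak were lower than 6 months by −1.46 ± 0.30 (adjusted p = 0.00389), but by −0.88, under 2-fold, with library size alone. Between cattle–yak and 4 years the difference was 0.21 ± 0.14 (adjusted p = 0.203), so that of the 5 genes CDH2 and TJP3 were those that did not pass there at any fold, CDH2 doing so without the second library of 4 years (0.38, adjusted p = 0.048).

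**Figure D3:**
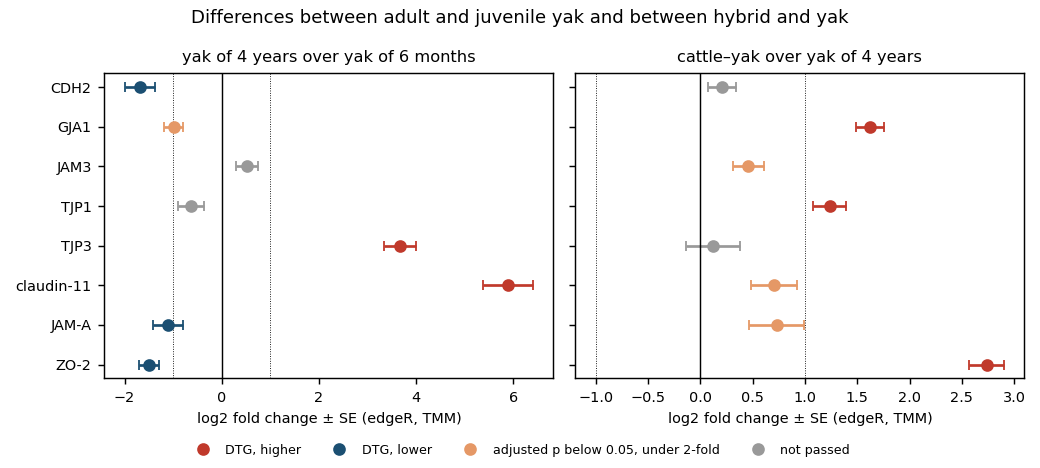
Log2 fold change (points) with its SE (whiskers) of each tested gene between yak of 4 years and 6 months (left) and between cattle–yak and yak of 4 years (right); colour gives the call, dotted lines mark 2-fold, and the panels have separate axes. At left TJP3 and claudin-11 lie far above 0 and CDH2, JAM-A and ZO-2 are DTGs below it; at right GJA1, TJP1 and ZO-2 are DTGs above 0 and CDH2 and TJP3 do not pass.

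Of the 5 genes, 2 were DTGs between cattle–yak and yak of 4 years, both higher (TJP1 and GJA1), where 44% of the 16498 genes tested were DTGs, 17.1% higher and 27% lower. At any fold, 3 passed, beside 65.7% of genes tested. The median log2 fold change of the 5 genes was 0.46, beside −0.002 over all genes tested. At 4 years against 6 months, 1 was higher (TJP3) and 1 lower (CDH2), where 55.7% of genes tested were DTGs, 31% higher and 24.7% lower, and 3 passed at any fold, beside 72.5%. TJP3 entered that comparison through its level at 4 years, so nothing is read from its place in these counts. Against 6 months, in cattle–yak 2 were higher (TJP3 and JAM3) and 1 lower (CDH2), where 37.8% were DTGs, 18.1% higher and 19.7% lower, and 4 passed at any fold, beside 57.7%. Against 18 months, 1 was higher in cattle–yak (GJA1), where 5.8% were DTGs, 3.45% higher and 2.34% lower, and 2 passed at any fold, beside 6.78%.

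In neither step through 18 months was any of the 5 genes called. The edgeR test called 10 of 14874 genes (0.0672%) between 18 and 6 months and 6 of 16175 (0.0371%) between 4 years and 18 months. At an unadjusted p below 0.05, 2 of the 5 genes passed in the first step (TJP3, CDH2), beside 25.8% of genes tested, and 1 in the second (TJP3), beside 35.4%. With 9 to 16 counts per library at 6 months, TJP3 entered the first step through its level at 18 months. Nothing is therefore read from its place in the counts of that step, with edgeR or DESeq2. DESeq2 called 12.6% and 27.1% of genes in these comparisons, among them TJP3 and CDH2 in the first and TJP3 in the second. TJP3 differed by 2.57 without the first 18-month library in the first step (adjusted p = 0.0281) and by 2.16 without the second 18-month library in the second (adjusted p = 0.00663), and edgeR then called it, as it did 16.8% and 44.6% of all genes tested without those libraries.

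The Sertoli cell list itself moved between these groups. At 4 years against 6 months, 6 of its 9 tested genes were DTGs, lower (24.7% of all genes tested were), with INHA at −4.11, GATA4 at −2.86 and SOX9 at −1.92 on the log2 scale, and INHBB was a DTG, higher, at 1.59. Cattle–yak against 4 years had 5 DTGs of 9 tested, all higher (17.1% of all genes tested were), with SOX9 at 2.41, GATA4 at 1.997 and KITLG at 1.78, and the list's median was 1.37. Peritubular myoid genes (5 of 5 DTGs, higher) and Leydig genes (2 of 2, higher) moved the same way in cattle–yak, beside 17.1% of all genes tested. Of 6 Leydig symbols only 2, STAR and CYP11A1, were in the tables. The peritubular myoid and Leydig sums went from 211 to 219 and 58.81 to 188 FPKM at 4 years to 780 to 1291 and 580 to 1041. GJA1 is known from those cells too, and their part in the results was not tested.

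The level of each junction gene was therefore also set against the mean log2 CPM of the 10 Sertoli genes in the same library. The 10 include GDNF, which had 0 to 18 counts per library. Spermatogonial genes also had 3 DTGs, higher, of 6 tested in cattle–yak against 4 years, beside 17.1% of all genes tested. The part of other cells in the reference, and so in the values relative to it, was not tested. With 3 libraries a side, the exact permutation test cannot give a two-sided p below 0.1, and every p of 0.1 here is that smallest value. TJP1 then differed between cattle–yak and 4 years by 0.13 with overlapping libraries (exact permutation p = 0.5). GJA1 remained higher by 0.54, from 1.87 to 1.99 at 4 years and 2.29 to 2.61 in cattle–yak, and ZO-2 by 1.63.

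Relative to the Sertoli list, JAM3 lay lower in cattle–yak by −0.62, CDH2 by −0.87, TJP3 by −0.99 and claudin-11 by −0.33, without overlap of the libraries (exact permutation p = 0.1 for each), and JAM-A by −0.29 with overlap (p = 0.4). Each of these had a log2 fold change above 0, so that the sign differed between the scales. No turn is read for TJP3 and CDH2, whose fold changes did not pass, or for JAM-A, whose libraries overlapped relative to the list. JAM3 overlapped when the median of the list was used (−0.51). Over age, claudin-11 was higher at 4 years than at 6 months by 7.26, TJP3 by 4.07 and JAM3 by 1.84, each without overlap (exact permutation p = 0.1). TJP1 differed by 0.74 without overlap, but its libraries overlapped relative to the median of the list (0.86) and to the list without INHA (0.43), a reference chosen after seeing the data. CDH2 differed by −0.30 and GJA1 by 0.33, both with overlapping libraries (exact permutation p = 0.5 and 0.4); without INHA the CDH2 libraries did not overlap (−0.61).

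**Figure D4:**
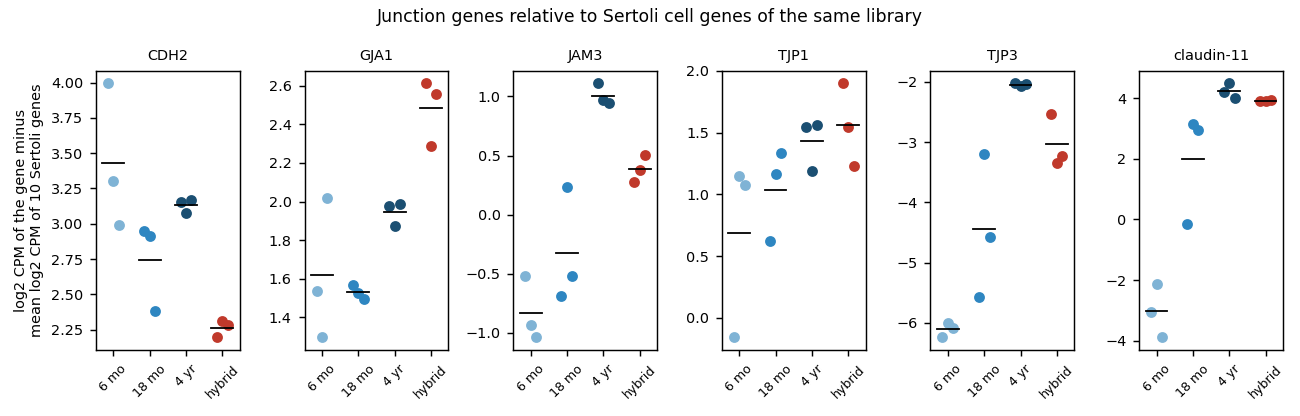
Log2 CPM of a gene minus the mean log2 CPM of 10 Sertoli cell genes in the same library (points; lines are group means, n = 3; axes differ and do not start at 0). GJA1 is highest in cattle–yak, CDH2, JAM3 and TJP3 are lower in cattle–yak than at 4 years, and claudin-11 lies between 3.90 and 4.49 in both.

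Other genes of cell junctions were taken from a list of 72 symbols, of which 61 were in the tables. At 4 years against 6 months, 48 were tested, with 9 DTGs higher and 24 lower, beside 31% and 24.7% of all genes tested, and a median of −0.90, beside 0.08 over all genes. Both counts include genes that passed the filter on low counts only through the group where they were high. Among them were CLDN7 and CLDN9 (higher) and PARD6G and CLDN4 (lower), so nothing is read from these counts beside the shares. In cattle–yak against 4 years, 49 were tested, with 13 DTGs higher and 8 lower, beside 17.1% and 27% of all genes tested. Their median was 0.69, beside −0.002 over all genes. The share of DTGs in either direction was near that of all genes (44%). These counts also include genes that passed the filter only through the group where they were high. Among them were PARD6G (higher) and CLDN9 and NECTIN4 (lower), so nothing is read from these counts beside the shares either.

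Cadherins, catenins and actin binders had 6 DTGs lower and 2 higher of 9 tested at 4 years against 6 months (24.7% and 31% of all genes tested). Those that fell included CTNNB1, beta-catenin (−1.58), CTNNA1, alpha-catenin (−1.59), and VCL, vinculin (−1.01). In cattle–yak against 4 years CTNNA1 (1.57) and VCL (1.59) were DTGs, higher, and CTNNB1 passed under 2-fold (0.71). ESPN, espin, an actin bundler of the ectoplasmic specialisation that anchors spermatids and lines the barrier, was at 0.20 to 0.35 FPKM at 6 months, 176 to 287 at 4 years and 177 to 229 in cattle–yak. It rose by 8.97 ± 0.34 between 6 months and 4 years (adjusted p = 9.217e-08), and between cattle–yak and 4 years it did not pass (−0.10 ± 0.20, adjusted p = 0.664). At 18 months ESPN was at 0.54, 112.29 and 12.04 FPKM, lowest in the library of that age with the least claudin-11.

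Of 17 claudins and MARVEL proteins in the tables, 8 passed the filter on low counts at 4 years against 6 months. The 4 that were lower at 4 years included CLDN5, best known from endothelium and also a Sertoli cell claudin in mouse, which fell from a mean of 156 to 8.56 FPKM, and CLDN1, which fell from 25.5 to 1.51. These 4 also included CLDN4, which passed the filter through its level at 6 months. Nothing is therefore read from their count beside the 24.7% of all genes tested that were lower. The 4 that were higher (CLDN7, CLDN9, CLDN10 and MARVELD3) had 0 to 11 counts per library at 6 months and passed the filter through their level at 4 years, so nothing is read from their count. CLDN7 was at a mean of 0.233 FPKM at 6 months and 20.5 at 4 years, and MARVELD3 at 0.17 and 4.29. Endothelial genes fell in the same comparison (5 of 6 DTGs, lower, beside 24.7% of all genes tested), with a sum of 138 to 267 FPKM at 6 months and 20.35 to 26.11 at 4 years; their part in the fall of CLDN5 was not tested. CLDN9 had 9 to 14 counts per library at 4 years and none at 6 months or in cattle–yak.

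Desmosome proteins, which anchor neighbouring cells to one another through their intermediate filaments, were lower at 4 years for 3 of 4, beside 24.7% of all genes tested (DSG2 at −5.77, DSC2 and PKP2) and higher in cattle–yak than at 4 years for 3 of 4, beside 17.1% (DSG2 at 1.16, PKP2 at 1.62, DSP, desmoplakin, at 2.65). JUP, plakoglobin, was a DTG in the same directions, higher by 1.79 in cattle–yak. SRC, a kinase that acts on junction proteins, was higher by 2.01 in cattle–yak. Lower in cattle–yak were NECTIN3 (−2.74), a nectin that spermatids use to bind Sertoli cells, MAGI2 (−3.80), a scaffold, and PRKCZ (−2.76), a polarity kinase, at 61.9, 7.27 and 19.9 FPKM in yak of 4 years.

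**Figure D5:**
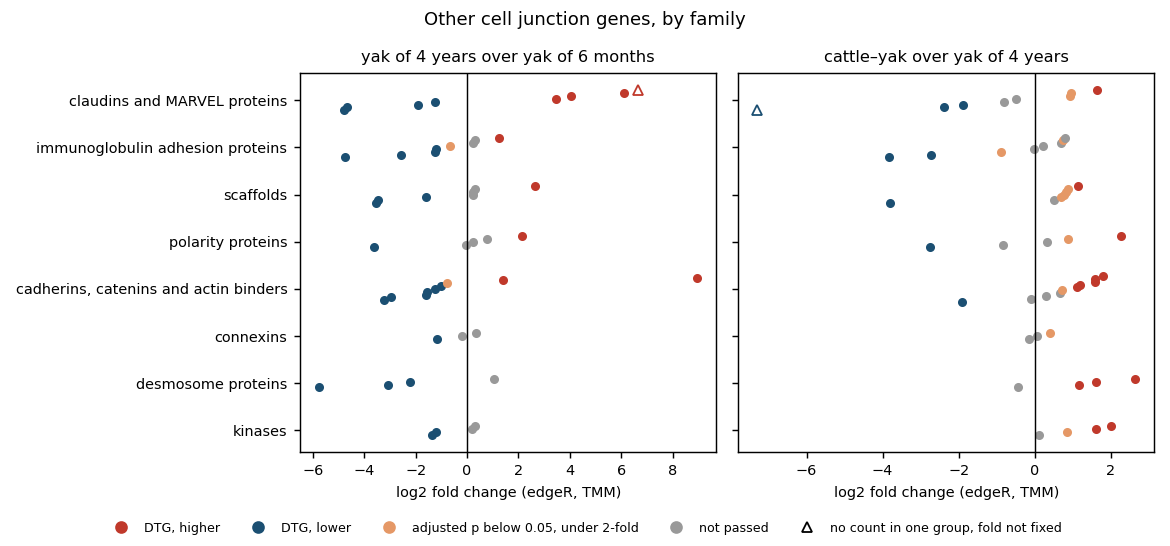
Log2 fold change of each tested gene of the junction list by family (points; colour gives the call; open triangles are genes without a count in a group, whose fold is not fixed), between yak of 4 years and 6 months (left) and between cattle–yak and yak of 4 years (right). At left 24 DTGs are lower and 9 higher, counts that include genes which passed the filter on low counts only through the group where they are high. At right 3 of 4 desmosome proteins and 2 of 4 kinases are DTGs above 0, beside 17.1% of all genes tested. Among 8 claudins and MARVEL proteins, 3 are DTGs below 0 and 1 above, beside 27% lower of all genes tested. Of 8 immunoglobulin adhesion proteins, 2 are DTGs below 0 and 0 above. The counts at right also include genes that passed only through the group where they are high, among them CLDN9 and NECTIN4.

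As a description over 12 libraries, the genes whose log2 CPM ran most like claudin-11 were SULT4A1 (Pearson's r = 0.987), TRERF1 and KLHL35 (0.984 each), TEX11 (0.982) and TRNAU1AP (0.981). Most like GJA1 were SLC9A3R1 (0.969), FBXO38 (0.96) and RASSF4, SUCLA2 and CAPNS1 (0.959 each). Most like CDH2 were TMEM184C (0.99), PLBD2 (0.975), CADM1 (0.972), CLSTN1 and RBP4 (0.971 each). The libraries share their groups and scaling, which such values include. CADM1, an adhesion protein between Sertoli and germ cells, had a mean FPKM of 395 in juvenile yak, 253 in yak of 4 years and 247 in the hybrids.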

How the data were processed

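Ribo-seq of testis from 12 animals was analysed, 1 library each, in 4 groups of 3 given by the labels. Per the methods, the authors filtered reads with fastp, discarded those matching rRNA (Bowtie2) or other small RNA (BLAST), kept reads of footprint length, aligned them with STAR to the yak genome BosGru 3.0, and quantified open reading frames with RSEM. The RSEM values were deposited by the authors as whole-number counts without normalization, and their FPKM was deposited beside them. The authors' fold changes, p-values and FDR were not used. Values of the 12 columns that occur in more than 1 of the 3 tables were identical.

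After filterByExpr, counts of the 6 libraries compared entered edgeR's quasi-likelihood test with TMM scaling, and Benjamini-Hochberg adjustment ran over all genes tested (R 4.3.3, edgeR 4.0.16). The SE was approximated by dividing the log2 fold change by the root of F. Levels relative to Sertoli genes used log2(CPM + 0.5). The code was tested on simulated data. Python 3.11.15, pandas 2.3.3, numpy 2.4.6, scipy 1.17.1 and matplotlib 3.10.9 made summaries and figures. Alternatives were DESeq2 1.42.0, RLE scaling, library size alone, no filter, all 12 libraries in 1 fit, limma 3.58.1 on log2(FPKM + 1) or log2(FPKM + 0.1), a block for the replicate number, and leaving out each library. Totals are given with the results and set the precision of low genes such as claudin-3.

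The genes, the junction list and the marker lists were chosen with earlier results of these data known. The text names the junction genes, and of the lists up to 5 DTGs per direction with the largest difference; CTNNB1, CTNNA1, VCL, DSC2, PKP2, INHBB and DSG2 in cattle–yak, EPCAM and the levels of CADM1 were named after their values were seen. No sequence is shown.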

Additional observations from a re-analysis of the deposited data

How the results depend on the processing

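Between cattle–yak and yak of 4 years, the count of 2 of the 5 junction genes called, TJP1 and GJA1 in edgeR, was 2 under all 14 alternatives run, and that of the junction list (21) and Sertoli list (5) stayed within 1.5 times. Between 4 years and 6 months, the 5 genes gave 2 or 3 calls and the junction list 33, but 19 in limma on log2(FPKM + 1). The cause was not tested. Other counts of these lists that moved by over 1.5 times lay in the comparisons with 18 months. Single genes also lost or gained calls between 4 years and 6 months and between cattle–yak and either of these groups. Examples are given with the genes.

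Between 18 and 6 months, where the main test called none of the 5 genes, the junction list or the Sertoli list, DESeq2 and the fit of all 12 libraries each called 2, 8 and 1, limma on log2(FPKM + 0.1) called 2 of the junction list, and leaving out a library gave 0 to 1, 0 to 14 and 0 to 3. Between 4 years and 18 months, again with no call, DESeq2 gave 1, 19 and 5 and the fit of all 12 libraries 1, 18 and 5, and leaving out a library gave 0 to 1, 0 to 24 and 0 to 8; the highest counts came without the second 18-month library, which held the spermatid genes. Between cattle–yak and 18 months (1, 4 and 0 in the main test), DESeq2 gave 2, 16 and 2, the fit of all 12 libraries 2, 18 and 2, limma on log2(FPKM + 1) 2, 7 and 1, library size alone 2 of the 5 genes, no filter 0 and 2, and leaving out a library 0 to 1, 0 to 12 and 0 to 3.

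The values that turned sign had not passed the main test. At 18 against 6 months, TJP1 (main −0.03) was 0.32 with library size alone, 0.33 and 0.35 in limma with pseudocounts of 1 and 0.1, 0.008 with the replicate block and −0.32 to 0.16 without a library. ZO-2 (main −0.07) was 0.25, 0.21 and 0.22 in the first 3 of these and −0.26 to 0.18 without a library, and JAM3 (main 0.12) was −0.049 to 0.395 without a library. At 4 years against 18 months, JAM-A (main −0.42) was −0.699 to 0.035 without a library. At 4 years against 6 months, TJP1 (main −0.64) was 0.005 and 0.013 in limma. TJP3 in cattle–yak against 4 years (main 0.12) was −0.144 to 0.314 without a library. JAM-A in cattle–yak against 6 months (main −0.36) was 0.19 with library size alone and 0.20 and 0.21 in limma.

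The replicate numbers did not pair the animals: correlations of deviations between same-numbered libraries ran from −0.341 to 0.12. With the replicate number as a block, the junction list had 4 calls at 18 against 6 months, and against 18 months cattle–yak had 0 of the 5 genes and 0 of the junction list; over all genes the calls at 18 against 6 months went from 10 to 538. Depth limits claudin-3, with 1 to 30 counts per library, and TJP3 at 6 months.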
